A study of Macaca mulatta with 22 samples.

Results

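The PRAME family genes are described here through every entry of the deposited RPKM table whose gene symbol starts with PRAMEF. The rule uses names and no measured value. It finds 9 of the 35468 entries: 6 with Ensembl identifiers (PRAMEF6, PRAMEF9, PRAMEF10, PRAMEF12, PRAMEF21 and PRAMEF22) and 3 with IMMRNTR identifiers, all named PRAMEF24P and described in the table as a pseudogene. None of the 9 identifiers is in the name table used, so every symbol is the one in the deposited table. The 3 PRAMEF24P entries (IMMRNTR1745, IMMRNTR6489 and IMMRNTR6552) are listed at 0 in all 22 libraries, and the values below are those of the other 6.

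PRAME was first known as a tumour antigen and is normally found in the germ line. Its relatives named PRAMEF have multiplied in primates into a cluster of close copies. They encode proteins made largely of leucine-rich repeats. In human cells PRAME acts as a substrate receptor of CUL2 ubiquitin ligases, which tag proteins for degradation, and human PRAMEF genes are among the genes that the transcription factor DUX4 switches on. At genome activation the embryo begins to transcribe its own genes while the messages stored in the egg are cleared.

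The 22 libraries each hold the RNA of 1 rhesus macaque (Macaca mulatta) oocyte or embryo. There are 2 oocytes with a germinal vesicle (GV), 2 in metaphase I (MI) and 3 in metaphase II (MII), and per the labels they were taken after death from superovulated donors. The embryos are 3 at the pronuclear stage (PN), 2 of 2 cells (2C), 3 of 4 cells (4C), 2 of 8 cells (8C), 3 morulae (Mo) and 2 blastocysts (Bl), and per the labels they were made by sperm injection and grown in culture. No label names an animal, a genotype or a treatment, so p-values measure only the spread between these oocytes and embryos, which may share donors. Each library is a bulk sample of its embryo, so fewer cells with a transcript and less of it per cell cannot be told apart. RPKM counts the reads of a gene, scaled to its length and to the reads of the library. At the estimated depths of 5.59 to 21.45 M reads, 1 RPKM stands for 5.59 to 21.45 reads per kilobase, and the shallowest library is 8C library 2.

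Marker genes matched the labelled stages. The summed RPKM of 9 matched oocyte markers (of 10 listed) was 4578 to 7200 in MII oocytes, 517 to 606 in 8C embryos and 12.5 to 17.5 in blastocysts, and that of 6 trophectoderm markers was 944 to 1260 in blastocysts, against 26.5 to 181 in morulae. Most of the blastocyst sum was an entry of KRT18, at 880 to 1206 RPKM. GATA3 was at 15.9 to 21.2 RPKM in blastocysts and at most 0.918 RPKM in morulae. Of 14 cumulus and granulosa cell markers, 3 reached 1 RPKM in an 8C library and 0 in a morula. Their summed RPKM was 0.869 to 14.7 at 8C and 6.29 to 27.0 at 4C. In oocytes this sum was 22.5 to 68.3 at GV, 58.7 to 77.5 at MI and 24.0 to 91.3 at MII. FOXL2 and AMH are listed at 0 in every library, while FSHR and CYP19A1 were above 0 in some. In oocytes FSHR was at most 0.795 RPKM (an MI oocyte) and CYP19A1 at most 0.49 RPKM (a GV oocyte). Most of the sum in oocytes therefore came from markers of the list that are not named here. At MI 1 of the 14 markers reached 1 RPKM in a library. Whether attached cells gave this signal was not tested. Mo library 2 stands apart: 4277 entries reached 1 RPKM in it, against 6763 to 10017 in each of the rest. Values at Mo that it moves by over 1.5 times or whose sign it turns are also given without it.

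The 6 expressed genes lie in 1 interval, with 3 entries without a symbol among them. The table, which names no genome build itself (the submitters' processing notes give Mmul_8.0.1), places them on chromosome 1 between positions 15904991 and 16054562, an interval of 149.6 kb. Their order along it is PRAMEF12 (15904991 to 15907718), PRAMEF6 (15924098 to 15933917), PRAMEF10 (15966865 to 15969696), PRAMEF9 (15989958 to 15993737), PRAMEF22 (16014029 to 16017123) and PRAMEF21 (16041772 to 16054562). PRAMEF genes are near-identical copies, and how the authors placed reads that match several copies is not given in the sources used here. Reads of one copy may therefore be counted for another, and a difference between 2 copies is uncertain.

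Before the 4C stage the family was close to nothing. In the 12 libraries from GV to 2C, 11 of the 72 values of the 6 genes were above 0. The highest was 0.220 RPKM, for PRAMEF9 in 2C library 2, and no value stood for more than 2.91 reads per kilobase. PRAMEF10 and PRAMEF12 were listed at 0 in all 12 libraries. All 6 genes were at 0 in both GV and all 3 MII oocytes. Between neighbouring stages up to 4C, limma called 0 of the 6 genes at an adjusted p under 0.05 and 0 at an unadjusted p under 0.05, while over all 14312 genes tested it called 0.587% (MI over GV), 8.48% (MII over MI), 7.66% (PN over MII), 0.468% (2C over PN) and 0.573% (4C over 2C).

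At 4C the family was low and uneven between embryos. The summed RPKM of the family was 3.42, 0.171 and 7.17 in 4C libraries 1 to 3. In 4C library 3 all 6 genes were above 0, in library 1 there were 4 and in library 2 only PRAMEF6 at 0.171 RPKM. Most of the sum in library 1 was PRAMEF12 at 3.15 RPKM (92.0% of it), while library 3 held PRAMEF12 at 2.24, PRAMEF6 at 2.17, PRAMEF9 at 1.89 and PRAMEF22 at 0.684 RPKM. Of 27 entries of a list of genome activation genes, 15 were highest in library 3 among the 4C embryos, 6 in library 2 and 4 in library 1. The share over all genes was not computed, so this count has nothing to be set against. Library 3 also had the highest estimated depth of the 4C libraries (14.19 M reads, against 13.65 and 9.47). It had the most entries at 1 RPKM too (8578, against 8196 and 8098).

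At 8C every expressed member was at 7.89 RPKM or more in both embryos, above all its 4C values. The summed RPKM was 944 and 734 in the 2 8C libraries, against 3.42, 0.171 and 7.17 in the 4C libraries. That is 0.269% and 0.251% of all RPKM in the 8C libraries. Without 4C library 3 the mean at 4C is 1.80 RPKM instead of 3.59, so no fold over 4C is given for the sum.

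PRAMEF6, at 269.5 and 218 RPKM in 8C embryos, had 0.118, 0.171 and 2.17 RPKM in 4C embryos. PRAMEF10 had 182 and 296 RPKM in 8C embryos and 0.103, 0 and 0.148 RPKM in 4C embryos. PRAMEF9 had 322 and 114 RPKM in 8C embryos and 0.053, 0 and 1.89 RPKM in 4C embryos. By mean RPKM at 8C these 3 ranked 192nd, 196th and 215th of all 35468 entries. The other 3 were lower. PRAMEF21 had 109 and 25.3 RPKM in 8C embryos and 0, 0 and 0.049 RPKM in 4C embryos. PRAMEF12 had 30.7 and 73.0 RPKM in 8C embryos and 3.15, 0 and 2.24 RPKM in 4C embryos. PRAMEF22 had 31.0 and 7.89 RPKM in 8C embryos and 0, 0 and 0.684 RPKM in 4C embryos. For none of the 6 did 8C and 4C embryos overlap. Over all genes tested, 23.3% had 8C libraries entirely above the 4C libraries.

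**Figure D1:**
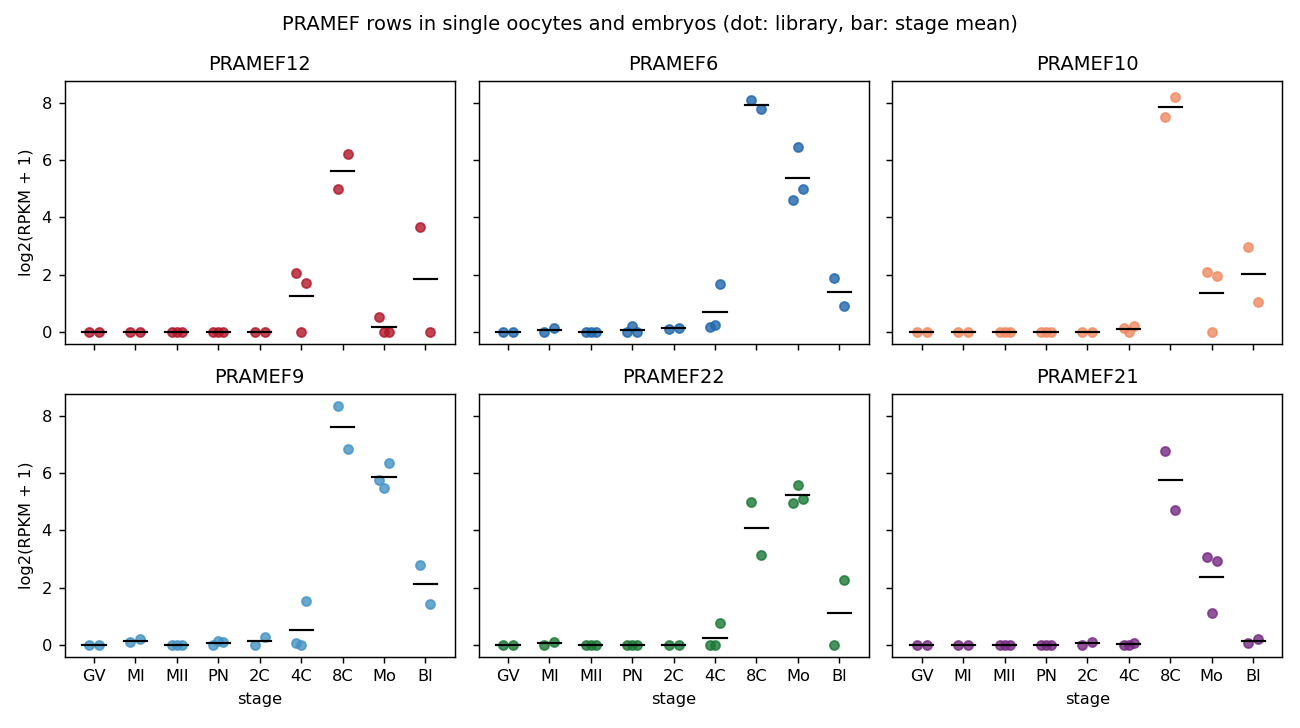
Level of the 6 expressed PRAMEF genes in each library, as log2(RPKM + 1), by stage from GV oocyte to blastocyst. Dots are libraries and bars are means of the log2 values. All genes sit near 0 up to 2C and are high at 8C, and at Mo PRAMEF6, PRAMEF9 and PRAMEF22 stay high while PRAMEF10 and PRAMEF12 do not.

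All 6 genes rose at 8C over 4C (limma on log2(RPKM + 1), Benjamini-Hochberg adjusted over all genes tested). The log2 change was 7.75 ± 0.54 (SE) for PRAMEF10 (limma adjusted p = 6.68e-09), 7.24 ± 0.52 for PRAMEF6 (8.54e-09) and 7.06 ± 0.52 for PRAMEF9 (1.19e-08). It was 5.73 ± 0.52 for PRAMEF21 (1.82e-07), 4.35 ± 0.72 for PRAMEF12 (1.85e-04) and 3.83 ± 0.55 for PRAMEF22 (4.24e-05). In this comparison limma called 13.9% of all tested genes higher and 10.2% lower. The 8C libraries alone would carry the 6 genes through the filter on low values, but other libraries do so too. PRAMEF6, PRAMEF9, PRAMEF21 and PRAMEF22 reached 1 RPKM in every morula. PRAMEF10 reached it in Mo libraries 1 and 3 and in both blastocysts. PRAMEF12, low at Mo, reached it in 4C libraries 1 and 3 (3.15 and 2.24 RPKM). The number of genes called is still not used beyond the separate changes. The limma fit pools the spread over all stages, and these genes are near 0 in most of them. With only 8C and 4C in the fit, the largest limma adjusted p of the 6 was 0.00735, for PRAMEF22, and over all 12 alternatives it was 0.0113, for PRAMEF12. The size of the change depended on the 8C library for 4 genes. Without 8C library 1 the log2 change is 6.31 for PRAMEF9, 4.69 for PRAMEF21, 4.96 for PRAMEF12 and 2.90 for PRAMEF22, and without 8C library 2 it is 7.80, 6.76, 3.74 and 4.75 for the same genes in that order. Without 4C library 2 it is 3.73 for PRAMEF12.

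The 8C embryos differed from each other in which copies were abundant. Library 1 held 4.31 times the RPKM of library 2 for PRAMEF21, 3.93 times for PRAMEF22, 2.82 times for PRAMEF9 and 1.23 times for PRAMEF6. Library 2 held 2.37 times the RPKM of library 1 for PRAMEF12 and 1.63 times for PRAMEF10. PRAMEF10 and PRAMEF12 together made up 22.5% of the family's RPKM in library 1 and 50.2% in library 2. The estimated depths were 20.5 and 5.59 M reads, and PRAMEF22 in library 2 stood for 44.1 reads per kilobase. Whether depth or the placing of reads among copies bears on these differences was not tested.

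In morulae 5 of the 6 genes were lower than in 8C embryos, by very different amounts. The summed RPKM was 117, 179 and 154 in Mo libraries 1 to 3, against 944 and 734 in 8C embryos. PRAMEF10 had 3.30, 0 and 2.86 RPKM in morulae, against 182 and 296 RPKM in 8C embryos, and fell by 6.51 ± 0.54 log2 units (limma adjusted p = 6.20e-08). PRAMEF12 had 0.441, 0 and 0 RPKM in morulae, against 30.7 and 73.0 RPKM in 8C embryos, and fell by 5.42 ± 0.72 (1.59e-05). PRAMEF21 had 7.41, 1.15 and 6.55 RPKM in morulae, against 109 and 25.3 RPKM in 8C embryos, and fell by 3.39 ± 0.52 (8.29e-05).

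PRAMEF6 had 23.4, 87.5 and 31.0 RPKM in morulae, against 269.5 and 218 RPKM in 8C embryos, and fell by 2.57 ± 0.52 log2 units (limma adjusted p = 0.00110). PRAMEF9 had 52.7, 43.7 and 80.1 RPKM in morulae, against 322 and 114 RPKM in 8C embryos, and fell by 1.74 ± 0.52 (0.0189). PRAMEF22 had 30.0, 47.0 and 33.3 RPKM in morulae, against 31.0 and 7.89 RPKM in 8C embryos. Its change was 1.14 ± 0.55 and was not called (limma adjusted p = 0.143). For 5 of the 6 genes no morula reached either 8C embryo, and the stages overlap for PRAMEF22. In this comparison limma called 20.0% of all tested genes lower and 5.39% higher, and 30.7% had Mo libraries entirely below the 8C libraries.

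The decreases of PRAMEF10 and PRAMEF12 at Mo kept their calls in all 11 alternative fits. That of PRAMEF9 was the least firm: its limma adjusted p is 0.284 without 8C library 1, 0.0949 with median-of-ratios scaling, 0.225 with a pseudocount of 0.1, 0.145 with no filter and 0.165 with only these stages, and the range over 11 alternatives is 0.00697 to 0.284. With only 8C and Mo in the fit, the calls of PRAMEF6 (limma adjusted p = 0.0701) and PRAMEF21 (0.0781) end too. PRAMEF22 is called higher at Mo without 8C library 1 (2.06, limma adjusted p = 0.0213) and with median-of-ratios scaling (1.69, 0.0355), and without 8C library 2 its change is 0.21. Without Mo library 2 the log2 change is -5.84 for PRAMEF10 and -2.76 for PRAMEF21, both still called. Without 8C library 1 it is -0.99 for PRAMEF9, -2.35 for PRAMEF21 and -6.03 for PRAMEF12, and without 8C library 2 it is -2.48, -4.42 and -4.81 for the same genes in that order.

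The make-up of the family's RPKM differed between stages. PRAMEF10 and PRAMEF12 together were 3.19%, 0% and 1.86% of the sum in morulae, against 22.5% and 50.2% in 8C embryos. PRAMEF6, PRAMEF9 and PRAMEF22 together were 90.5%, 99.4% and 93.9% in morulae, against 66.0% and 46.4% in 8C embryos. Mo library 2 differed from the other morulae in PRAMEF6, which was 48.8% of its sum and 20.0% and 20.2% of theirs. PRAMEF9 was 24.3% of its sum and 44.9% and 52.0% of theirs, and PRAMEF21 was 0.639% of its sum and 6.32% and 4.25% of theirs. Without Mo library 2 the Mo mean is 27.2 RPKM for PRAMEF6 and 66.4 RPKM for PRAMEF9 and 31.7 RPKM for PRAMEF22, against 47.3, 58.8 and 36.8 RPKM with it. These groupings of copies were made after the values were seen and were not tested.

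**Figure D2:**
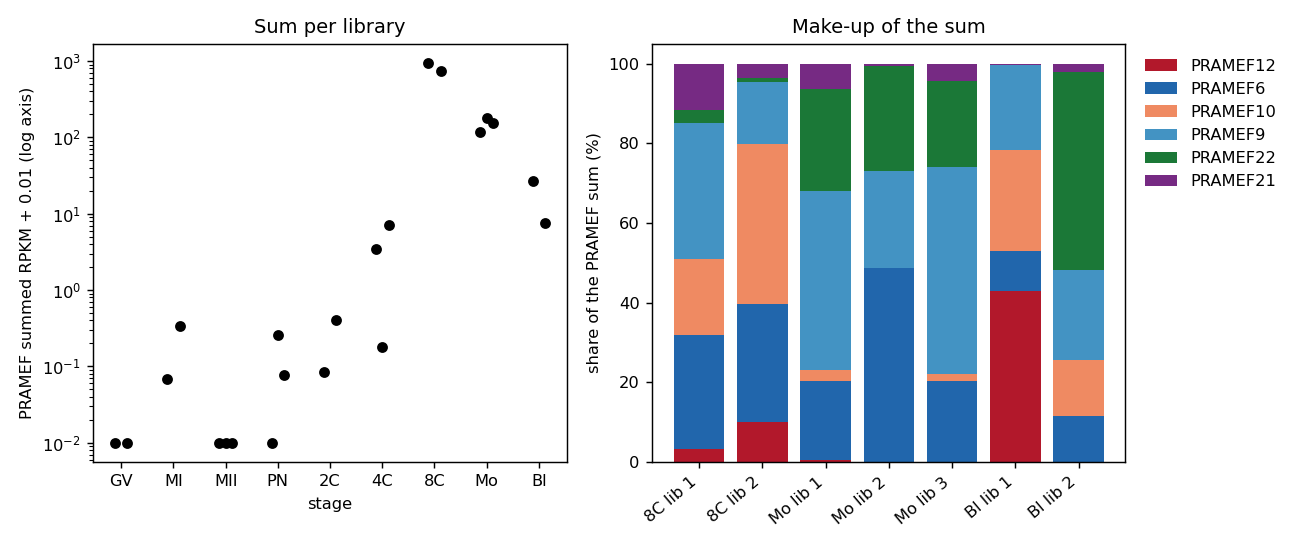
Left, the RPKM of all PRAMEF entries summed in each library plus 0.01, on a log axis, by stage. Right, the share of that sum held by each gene in the 8C, Mo and Bl libraries: PRAMEF10 and PRAMEF12 take 22.5% and 50.2% at 8C and at most 3.19% at Mo.

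In blastocysts the family was low again. The summed RPKM was 27.1 and 7.58 in Bl libraries 1 and 2, against 117, 179 and 154 in morulae. PRAMEF6 had 2.71 and 0.866 RPKM in blastocysts, against 23.4, 87.5 and 31.0 RPKM in morulae, and fell by 3.96 ± 0.52 log2 units (limma adjusted p = 3.45e-05). PRAMEF9 had 5.83 and 1.72 RPKM in blastocysts, against 52.7, 43.7 and 80.1 RPKM in morulae, and fell by 3.75 ± 0.52 (6.19e-05). PRAMEF22 had 0 and 3.78 RPKM in blastocysts, against 30.0, 47.0 and 33.3 RPKM in morulae, and fell by 4.09 ± 0.55 (4.33e-05). PRAMEF21 had 0.058 and 0.147 RPKM in blastocysts, against 7.41, 1.15 and 6.55 RPKM in morulae, and fell by 2.22 ± 0.52 (0.00679). For these 4 genes blastocysts and morulae did not overlap. Over all genes tested, limma called 2.12% lower at Bl than at Mo and 14.1% in either direction, and 5.81% had Bl libraries entirely below the Mo libraries.

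PRAMEF10 and PRAMEF12 did not pass the test at Bl over Mo. PRAMEF10 had 6.87 and 1.08 RPKM in blastocysts, against 3.30, 0 and 2.86 RPKM in morulae, a log2 change of 0.67 ± 0.54 (limma adjusted p = 0.530). PRAMEF12 had 11.7 RPKM in Bl library 1 and 0 in Bl library 2, against 0.441, 0 and 0 RPKM in morulae, a log2 change of 1.66 ± 0.72 (0.145). Bl library 1 decides that value: without Bl library 2 it is 3.49 (limma adjusted p = 0.00112), and without Bl library 1 it is -0.18. For PRAMEF10 the change is -0.01 without Mo library 2, -0.30 without Bl library 1 and 1.63 without Bl library 2. Among the called decreases, that of PRAMEF21 is -2.85 without Mo library 2. Without Bl library 1 the change is -4.41 for PRAMEF9 and -2.96 for PRAMEF22, and without Bl library 2 it is -3.08 and -5.21 for the same genes in that order. With only Mo and Bl in the fit none of the 4 decreases is called (limma adjusted p = 0.0704 to 0.165, with 4 genes at an unadjusted p under 0.05), and that fit calls 9 of 8541 tested genes in all. The call of PRAMEF21 also ends without Bl library 1 (0.0684) and with no filter on low values (0.0835).

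**Figure D3:**
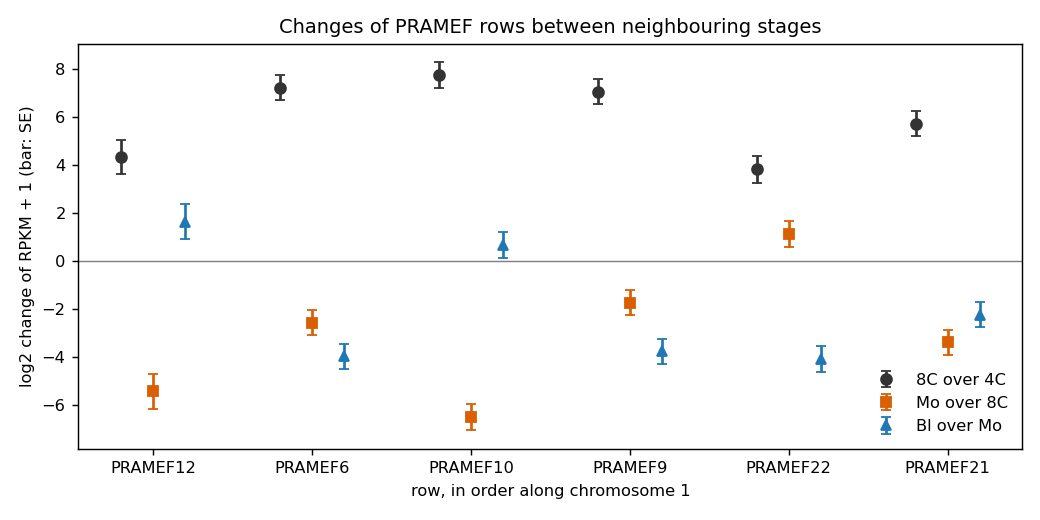
Log2 change of RPKM + 1 for each gene from limma (bars are SE), in order along chromosome 1, at 8C over 4C (circles), Mo over 8C (squares) and Bl over Mo (triangles). Every gene lies above 0 in the first comparison, and at Mo over 8C the changes run from -6.51 for PRAMEF10 to 1.14 for PRAMEF22.

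Set directly against 8C, blastocysts were lower for all 6 genes, with log2 changes of -6.53 ± 0.57 for PRAMEF6, -5.85 ± 0.60 for PRAMEF10, -5.61 ± 0.57 for PRAMEF21, -5.49 ± 0.57 for PRAMEF9, -3.77 ± 0.79 for PRAMEF12 and -2.95 ± 0.60 for PRAMEF22. The limma adjusted p was at most 0.00135, and limma called 14.7% of all tested genes lower at Bl than at 8C. With only these stages in the fit the calls of PRAMEF12 (limma adjusted p = 0.0641) and PRAMEF22 (0.0764) end. Single libraries moved the size of most of these changes, with every call kept. With 8C library 1, 8C library 2, Bl library 1 or Bl library 2 left out, the change lay between -5.60 and -1.94 for PRAMEF12 (limma adjusted p up to 0.0377), between -4.08 and -1.82 for PRAMEF22 (up to 0.0452) and between -6.23 and -4.74 for PRAMEF9. It lay between -6.81 and -4.89 for PRAMEF10, where the Bl libraries set the ends, and between -6.64 and -4.58 for PRAMEF21, where the 8C libraries did. Against the mean of PN, 2C and 4C, 8C was higher for all 6, by 3.99 (PRAMEF22) to 7.82 (PRAMEF10) log2 units, where limma called 15.8% of all tested genes higher. The F test over the 9 stages called all 6, and 68.3% of all genes.

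The order of stage means was not the same for every gene. PRAMEF6, PRAMEF9 and PRAMEF21 were highest at 8C, then Mo, then Bl. PRAMEF10 and PRAMEF12 were highest at 8C, then Bl, and PRAMEF22 was highest at Mo, then 8C, then Bl. PRAMEF22 averaged 36.8 ± 9.02 RPKM at Mo and 19.4 ± 16.3 RPKM at 8C (SD), a difference that missed the threshold and passes it without 8C library 1 or with median-of-ratios scaling. PRAMEF10 at Bl over Mo and PRAMEF12 at Bl over 4C (log2 change 0.58 ± 0.72, limma adjusted p = 0.564) also missed it. At Bl over 4C, where limma called 38.9% of all tested genes, it called PRAMEF10 (1.90 ± 0.54, adjusted p = 0.00923) and PRAMEF9 (1.57 ± 0.52, adjusted p = 0.0223) higher, and the other 4 did not pass the test.

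The interval holds 3 more entries without a gene symbol, and they too were high at 8C. The entry named only LOC100427743, between PRAMEF12 and PRAMEF6, had 117 and 122 RPKM in 8C embryos and 0 in all 4C embryos. ENSMMUG00000016782, between PRAMEF9 and PRAMEF22, had 140.0 and 112 RPKM in 8C embryos, against 0, 0 and 0.102 RPKM in 4C embryos. The third had 14.4 and 85.0 RPKM in 8C embryos. In morulae none of the 3 exceeded 0.072 RPKM, and in blastocysts none exceeded 1.55 RPKM. All 9 entries of the interval were thus at 7.89 RPKM or more in both 8C embryos, while the 7 nearest entries on its flanks, among them AADACL3, CFAP107 and LRRC38, reached at most 1.92 RPKM there. Across 22 libraries the log2 values of the 3 entries correlated with PRAMEF10 at Pearson r of 0.945 to 0.955 and with PRAMEF22 at 0.380 to 0.434. These are descriptions, since all entries are measured in the same libraries and share the depth and stage of each.

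**Figure D4:**
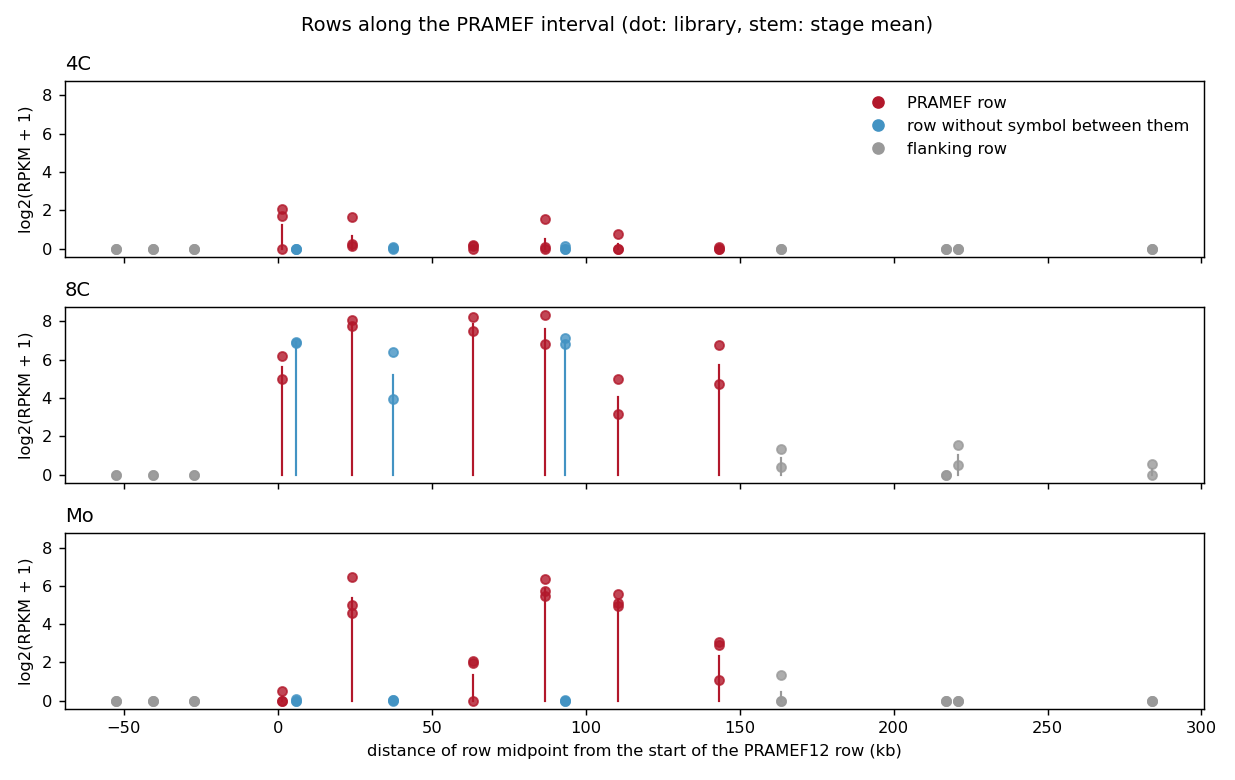
Level of each entry, as log2(RPKM + 1), along the PRAMEF interval of chromosome 1 at 4C, 8C and Mo, by distance from the start of PRAMEF12. Dots are libraries and stems reach the mean of the log2 values. At 8C all 9 entries of the interval lie above the flanking entries, and at Mo the 3 entries without a symbol are near 0.

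The 6 genes also differed in how closely they followed each other over the 22 libraries, again as a description. PRAMEF6 and PRAMEF9 had the highest correlation of log2(RPKM + 1) at Pearson r = 0.981, and PRAMEF12 and PRAMEF22 the lowest at 0.322. PRAMEF10 and PRAMEF12 were at 0.906, and PRAMEF9 and PRAMEF22 at 0.923. Most libraries are near 0 for all 6 genes, so these values are set mainly by the 8C, Mo and Bl embryos.

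Among 6346 other entries with a symbol and a stage mean of at least 10 RPKM, the closest in pattern differed by gene. For PRAMEF9 they were ZBTB8A (r = 0.971), the homeobox gene DUXA (0.967), the cyclin gene CCNA1 (0.957), the zinc finger gene ZIM3 (0.952) and ZNF486 (0.949). For PRAMEF6 they were the ubiquitin protease gene USP29 (0.964), ZFYVE1 (0.957), CCNA1 (0.954), ZBTB8A (0.943) and MAML1 (0.942). For PRAMEF22 they were ZIM3 (0.986), the acetyltransferase gene KAT2B (0.964), ENSMMUG00000004689 (0.962), IMMRNTR4858, named HLA-B in the table (0.959), and ZBTB8A (0.956). ZIM3 averaged 0.091, 159, 219.6 and 7.02 RPKM in the 4 stages from 4C to Bl.

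PRAMEF21 was closest to the transcription factor gene KLF17 (0.963), ZNF878 (0.959), IMMRNTR3430, named GGNBP2 (0.958), SMCO1 (0.956) and PRPH (0.950), and KLF17 averaged 0.025, 42.0, 1.24 and 0.154 RPKM in the 4 stages from 4C to Bl. For PRAMEF10 the 5 closest all have IMMRNTR identifiers whose names could not be checked (r = 0.964 to 0.976), led by IMMRNTR2031. For PRAMEF12 they were 4 such entries, among them those named SOD2 (IMMRNTR1644, 0.931), KDM4E (IMMRNTR844, 0.921) and LEUTX (IMMRNTR1244, 0.906), and ZSCAN5D (0.887). The summed family was closest to DUXA (0.960), the histone demethylase gene KDM5B (0.959), ZNF280A (0.957), ZFYVE1 (0.950) and KHDC1L (0.947).

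A list of 56 genome activation genes, written from general knowledge with the stage at which the family is high already known, had 27 tested entries from 22 genes. A rise at 8C and a later fall were thus in part set by this choice. Entries high mainly at 8C, such as KDM4E (17.7 RPKM at 8C, 0.638 at 4C, 0.022 at Mo), could pass the filter through those libraries. The counts are therefore a description. At 8C over 4C limma called 18 of the 27 higher and 0 lower, with a median log2 change of 3.66, against 13.9% higher, 10.2% lower and a median of 0 over all genes tested. DUXA, a homeobox gene, rose by 10.08 ± 0.75 log2 units (limma adjusted p = 1.29e-08), and CCNA1, a cyclin gene best known from meiosis, by 7.96 ± 0.55 (5.18e-09). At Mo over 8C limma called 0 higher and 13 lower, with a median of -1.92, against 5.39% higher, 20.0% lower and a median of -0.38 over all genes tested. KLF17 fell by 4.35 ± 0.36 (limma adjusted p = 5.36e-08) and the phosphate transporter gene SLC34A2 fell by 5.44 ± 0.42 (1.98e-08). At Bl over Mo 1 was called higher and 3 lower, with a median of 0.20, against 2.12% lower, 14.1% in either direction and a median of 0.23 over all genes tested. The 3 lower ones are DUXA, ZSCAN4 and CCNA1, and their calls end with only these stages in the fit (limma adjusted p = 0.0681 for each). Without Mo library 2 the log2 change of DUXA at Bl over Mo is -6.29, against -5.55 with it.

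PRAME itself, on chromosome 10, is the only tested entry of the family's relatives. It had 5.25 and 15.4 RPKM in 8C embryos, against 0.823, 0.037 and 0.050 RPKM in 4C embryos, and rose by 3.01 ± 0.68 log2 units (limma adjusted p = 0.00281). That call ends without 8C library 2 (2.31, limma adjusted p = 0.0570), and without 8C library 1 the change is 3.71. PRAME was also above 0 in both GV oocytes (3.46 and 1.05 RPKM), where all 6 PRAMEF genes were at 0. In morulae it had 9.90, 45.4 and 7.74 RPKM and in blastocysts 4.19 and 8.83 RPKM, and neither Mo over 8C (0.70 ± 0.68, adjusted p = 0.515) nor Bl over 8C (-0.50 ± 0.74, adjusted p = 0.684) passed the limma test. Mo library 2 holds the highest PRAME value, and without it the change at Mo over 8C is -0.05.

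Genes of the CUL2 ligase and other known partners of human PRAME were also counted. Of 21 tested entries from 19 listed genes, limma called 8 higher and 3 lower at 8C over 4C, with a median log2 change of 0.83, against 13.9% higher, 10.2% lower and a median of 0 over all genes tested. The share called lower is near that over all genes. With no filter on low values 3 are called, where limma called 1764 of all 35468 entries, against 3442 of 14312 with the filter. Fewer are also called without 8C library 1 or 8C library 2, and there fewer of all genes are called too. The scaffold gene CUL2 had 33.5 ± 15.2 RPKM in 8C embryos and 4.54 ± 0.936 RPKM in 4C embryos (SD, n = 2 and 3) and rose by 2.58 ± 0.47 log2 units (limma adjusted p = 4.29e-04). It rose again at Mo over 8C by 2.03 ± 0.47, to 142 ± 61.1 RPKM in morulae (limma adjusted p = 0.00304), and fell by 3.25 ± 0.47 at Bl over Mo, to 13.1 ± 2.06 RPKM in blastocysts (8.71e-05). The increase at Mo loses its call without 8C library 1 (0.0619), with no filter (0.0572) and with only these stages (0.108), and the decrease at Bl with only these stages (0.0714).

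ELOC, which encodes the adaptor elongin C, rose by 1.90 ± 0.54 log2 units at 8C over 4C (limma adjusted p = 0.0139), to 641 ± 154 RPKM in 8C embryos, against 172 ± 41.9 RPKM in 4C embryos. RBX1, the RING subunit of the ligase, fell by 1.69 ± 0.46 (limma adjusted p = 0.0119), to 83.5 ± 12.8 RPKM in 8C embryos, against 275 ± 70.0 RPKM in 4C embryos. Both calls end with no filter on low values (0.147 for each), that of ELOC also without 8C library 1 (0.121) or 4C library 1 (0.0512), and that of RBX1 without 8C library 2 (0.0830). The entry of the elongin B gene under its older symbol TCEB2 (IMMRNTR686) rose by 3.63 ± 0.56 (limma adjusted p = 9.00e-05), while the other 2 TCEB2 entries were not called. The substrate receptor gene FEM1B rose (3.19 ± 0.75, limma adjusted p = 0.00388) and KLHDC3 fell (-1.61 ± 0.46, 0.0143). The retinoic acid receptor gene RARG was 1.40 RPKM at 8C and listed at 0 at 4C, and RARB was 0.010 RPKM at 8C and 2.73 RPKM at 4C (limma adjusted p = 0.00674). The call of FEM1B ends without 8C library 1 (limma adjusted p = 0.1002) and that of KLHDC3 without 8C library 2 (0.151). With no filter on low values both calls end, and so does that of RARB.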

How the data were processed

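The values are RPKM as deposited by the authors, in 1 table of 35468 entries, whose 22 columns carry the sample titles. Per the labels' protocols, a SMARTer Ultra Low Input kit was used for amplification. The submitters' processing notes name the build Mmul_8.0.1. The aligner, the counting program and the handling of reads that match several copies are not given in the sources used here. The members, lists and tests were chosen with earlier results of these data known. Symbols came from the name table and otherwise from the deposited table.

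The test was limma 3.58.1 (R 4.3.3), run on the 14312 entries that reached 1 RPKM in 2 or more libraries. It used log2(RPKM + 1) and fitted a mean for each stage, with 13 residual degrees of freedom, and trended, robust moderation. Changes of low genes are understated on this scale. Benjamini-Hochberg adjustment ran over all entries of a comparison, with a call at 0.05. Named are all PRAMEF entries, list members called at 8C over 4C (at most 8 per list, not all printed), and the 5 entries closest in pattern to each gene. Depth was estimated from 530 low values of entries spanning under 200 bp, of which 465 (87.7%) lay within 0.05 of a whole read. The depth of each library was chosen to make this share as high as possible, so the share is no check of the depth. On simulated data, 80% of changes of 3 log2 units at 8C over 4C were recovered among 14312 genes, and 7% of calls were false. There each gene had the same mean and spread in all libraries, apart from 200 genes raised at 8C. The PRAMEF genes are near 0 in most stages, so these rates may not carry over to them. No library columns were identical. Other tools were Python 3.11.15, pandas 2.3.3, numpy 2.4.6 and matplotlib 3.10.9.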

Additional observations from a re-analysis of the deposited data

How the results depend on the processing

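The 6 PRAMEF genes kept their calls at 8C over 4C in all 12 alternatives: median-of-ratios scaling, a pseudocount of 0.1, no filter, a filter at 5 RPKM, the replicate number as a block, only the stages compared, each library of those stages left out, and Mo library 2 left out. With only the stages compared, 2 of the 6 are called at Mo over 8C (5 in the fit of all stages), with 4 at an unadjusted limma p under 0.05. At Bl over Mo 0 of 5 tested are called (4 in the fit of all stages), with 4 at an unadjusted limma p under 0.05. In all, such a fit called 1571 of 9264 genes at Mo over 8C and 9 of 8541 at Bl over Mo. That fit has few residual degrees of freedom. Leaving out 1 library moved the uncalled log2 changes at Bl over Mo between -0.18 and 3.49 for PRAMEF12 and between -0.30 and 1.63 for PRAMEF10. The CUL2 list has 3 called entries at 8C over 4C with no filter (1764 of all 35468), against 11 with it (3442 of 14312). It has 8 to 9 when a 4C library is left out, where 2791 to 3002 of all genes are called. Without Mo library 2 it has 11, with 4394 of all genes called. With either 8C library left out fewer are called, as among all genes. PRAME, the only tested relative, loses its call without 8C library 2. Under median-of-ratios scaling the Mo mean of the sum is 267 RPKM instead of 150.1, and the 8C mean is 933 instead of 839. With the replicate block the counts of PRAMEF genes called were 6 at 8C over 4C, 5 at Mo over 8C and 4 at Bl over Mo, as without it. Over all 14312 genes that fit called 3159, 3539 and 2025 in the same comparisons. Of 17 same-numbered pairs of libraries in neighbouring stages, 3 had deviations from the stage means correlated above 0.1 (at most 0.324). In stages of 2 libraries these deviations mirror each other, so the check cannot decide whether the numbers pair the samples. By mean RPKM of each stage, with all libraries kept and no test, 5 of 6 genes were highest at 8C. The share of all genes highest at 8C was not computed. The cause of these differences was not tested. Stages of 2 libraries limit every statement on 8C and Bl.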
